A study of Homo sapiens with 45 samples.

Results

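Human chromosome 19 carries long runs of genes for C2H2 zinc finger proteins, DNA-binding proteins in which short fingers, each folded around a zinc ion, read a few bases. Most of the proteins from these runs also carry a KRAB domain, which binds the corepressor TRIM28; TRIM28 in turn brings the H3K9 methyltransferase SETDB1 and HP1 proteins to the bound DNA. The runs arose by repeated tandem duplication, so neighbours resemble each other in sequence. Their gene bodies are known to carry H3K9me3, the trimethylated histone mark of compacted chromatin, and the KRAB zinc finger protein ZNF274 is known to bind at many of them.

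The genes described are all names made of ZNF and a number in the count table whose RefSeq gene lies on chromosome 19 of GRCh38. There were 242 of them among 28278 names, against 236 numbered ZNF genes on other chromosomes. RefSeq calls 240 of the 242 protein coding and 2 not. The choice used name and position alone, not a measured value. Runs in which neighbouring gene bodies lay at most 500 kb apart, with at least 5 members, were called clusters. There were 10, numbered from the short arm to the end of the long arm, with 230 members, and 12 members lay outside them.

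The cells were HCT116, an established human colon cancer line. They received 25 nM of siRNA for 72 hours, either a nontargeting control or one against HNRNPK, which encodes a nuclear protein that binds C-rich RNA and DNA. RNA was sequenced in 4 libraries with the control siNTC5, 4 with HNRNPK siRNA and 2 with a second control, Scramble. In the groups of 4, replicates 1 and 2 were made with the TruSeq stranded mRNA kit and 3 and 4 with the Stranded mRNA Ligation kit. The Scramble libraries used the TruSeq kit, another RNA purification kit and count tables of their own. Chromatin was given as 7 lists of domains called from chromatin immunoprecipitation (ChIP): H3K9me3, H3K27me3 and lamin B1, which lines the inside of the nuclear envelope, after either siRNA, and H3K9me2 after control siRNA only. The labels do not say whether libraries came from separate cultures, so p-values measure the spread between these libraries, which may be technical. All samples are of 1 cell line, and the siRNA sequences were not used here.

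Total counts ran from 12107280 to 23633851 in the 8 libraries and were 59209169 and 55007171 in the Scramble libraries. HNRNPK itself stood at 934.4, 967.4, 822.2 and 813.8 CPM (a count's share of its library, TMM-normalised) in the siNTC5 libraries and at 250.3, 222.6, 157.0 and 164.2 with its siRNA. The epithelial markers EPCAM, KRT8, KRT18 and CDH1 were at 94.9 CPM or more in each of the 8 libraries, the intestinal marker VIL1 was at most 0.446, the leukocyte marker PTPRC at most 0.149 and the endothelial marker PECAM1 at most 0.421. COL1A1, a collagen gene typical of fibroblasts, ranged from 43.5 to 122 CPM; its part in the results was not tested.

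Promoter sequences show how the clusters differ. RefSeq (GRCh38.p14) gave promoters, here 250 bases before to 50 after the outermost start, for 210 members. Among words of 10 bases on either strand, the one most in excess over all promoters was CCTGATTGGA, or TCCAATCAGG on the other strand, which contains the inverted CCAAT box, the element read by the factor NF-Y. It was in 20.5% of the 210 member promoters, in 0.388% of all 27305 promoters and in 6.22% of those of numbered ZNF genes elsewhere. By cluster the share was 60% of 5 promoters in cluster 1, 58.3% of 24 in cluster 3 and 89.7% of 29 in cluster 4. The other 7 clusters had none. The word lay before the start in all 43 promoters that had it, with its first base at a median of 59 bases upstream. ZNF136 and ZNF490 of cluster 3 and ZNF724 of cluster 4 are printed to show the word (capitals). They are the only 3 of the 23 named members with a promoter in the table that have it. The word was in 17.4% of the promoters of higher members, 17.9% of those with no call, 27.6% of those not tested and none of the 9 of lower members.
ZNF136, chr19:12162846-12163145, plus strand: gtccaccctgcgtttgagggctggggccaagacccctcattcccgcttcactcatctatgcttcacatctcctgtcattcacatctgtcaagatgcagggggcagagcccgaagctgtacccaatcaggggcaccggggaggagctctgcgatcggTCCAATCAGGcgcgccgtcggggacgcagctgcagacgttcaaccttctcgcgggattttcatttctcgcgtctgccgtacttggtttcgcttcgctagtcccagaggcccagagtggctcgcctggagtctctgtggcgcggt
ZNF490, chr19:12610764-12611063, minus strand: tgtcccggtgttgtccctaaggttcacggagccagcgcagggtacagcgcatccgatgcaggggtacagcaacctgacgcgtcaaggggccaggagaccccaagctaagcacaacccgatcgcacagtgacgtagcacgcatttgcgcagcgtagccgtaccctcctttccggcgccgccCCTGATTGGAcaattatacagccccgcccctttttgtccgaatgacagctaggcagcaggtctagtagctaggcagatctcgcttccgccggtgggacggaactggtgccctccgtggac
ZNF724, chr19:23250345-23250644, minus strand: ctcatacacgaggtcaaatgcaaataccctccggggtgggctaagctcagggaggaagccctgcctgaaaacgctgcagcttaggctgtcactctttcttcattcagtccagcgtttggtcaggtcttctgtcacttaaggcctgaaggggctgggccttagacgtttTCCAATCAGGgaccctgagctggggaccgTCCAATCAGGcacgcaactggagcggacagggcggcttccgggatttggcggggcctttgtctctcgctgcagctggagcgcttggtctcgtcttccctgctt

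Cluster 8, which holds 7 of the 12 largest rises named below, lacked that word. The word most in excess there was AGGCCCCGCC (GGCGGGGCCT on the other strand), found in 50% of its 32 promoters and in 3.11% of all promoters. It was not particular to cluster 8, since 58.6% of the 29 promoters of cluster 4 had it too. ZNF616, ZNF701 and ZNF525 of cluster 8, printed next as 3 of its larger rises, carry the word in capitals, first at positions -52, -68 and -59 from the start. They are not its 3 largest, since ZNF888, ZNF350 and ZNF614, described below, rose more than ZNF525. Whether the other named rises of cluster 8 carry the word is not given here.
ZNF616, chr19:52139889-52140188, minus strand: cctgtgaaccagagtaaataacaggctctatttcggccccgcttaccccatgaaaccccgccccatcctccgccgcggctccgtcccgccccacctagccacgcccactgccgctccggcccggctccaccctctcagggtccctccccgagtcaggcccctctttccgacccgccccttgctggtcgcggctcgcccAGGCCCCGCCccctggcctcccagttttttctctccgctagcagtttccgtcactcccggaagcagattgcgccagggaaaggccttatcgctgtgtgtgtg
ZNF701, chr19:52570037-52570336, plus strand: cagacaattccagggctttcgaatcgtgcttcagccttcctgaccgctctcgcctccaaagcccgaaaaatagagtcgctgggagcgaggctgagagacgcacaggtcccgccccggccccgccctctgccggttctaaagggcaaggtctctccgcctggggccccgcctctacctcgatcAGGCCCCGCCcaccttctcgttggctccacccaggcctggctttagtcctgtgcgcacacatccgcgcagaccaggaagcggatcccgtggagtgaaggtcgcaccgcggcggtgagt
ZNF525, chr19:53365455-53365754, plus strand: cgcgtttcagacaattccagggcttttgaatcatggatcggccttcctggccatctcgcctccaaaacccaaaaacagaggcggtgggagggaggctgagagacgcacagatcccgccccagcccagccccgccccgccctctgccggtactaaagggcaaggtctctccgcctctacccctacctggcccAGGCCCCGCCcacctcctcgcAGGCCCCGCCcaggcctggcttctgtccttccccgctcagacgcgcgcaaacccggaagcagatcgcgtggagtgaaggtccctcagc
The words were chosen from these sequences, and members of a cluster share ancestry, so the shares are descriptions. A word of the kind HNRNPK binds, the C-rich CCCTCCC on either strand, was in 16.7% of member promoters and 25.2% of all promoters. It was in 11.1% of the 171 member promoters whose gene lay in a control H3K9me3 domain and in 41% of the 39 others. Member promoters held a median of 20 CpG against 13 over all promoters, with medians from 10 in cluster 4 to 29.5 in cluster 9.

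After HNRNPK siRNA most of the zinc finger genes of chromosome 19 that could be tested rose. Summed over the 242 members, RNA was at 2384, 2458, 2550 and 2589 CPM in the siNTC5 libraries and at 3616, 3782, 3868 and 3682 CPM with HNRNPK siRNA, so the groups did not overlap. Of the members, 152 had enough counts to be tested and 90 had not. With edgeR's quasi-likelihood test and an adjusted p under 0.05, 94 of the 152 were higher, 10 were lower and 48 had no call. The background was large: 71.5% of the 13933 genes tested were called, 35.5% higher and 36.1% lower. The members' 61.8% higher stands above that background and their 6.6% lower stands below it. Their median log2 fold change was 0.45, against -0.004 over all genes tested. Each HNRNPK siRNA library showed the shift against the controls of its kit, with a median over tested members between 0.39 and 0.49 on the log2 scale. In 84 members all 4 HNRNPK siRNA libraries lay above all 4 siNTC5 libraries, and in 9 all lay below, against 28.5% and 28% of all genes tested. Bulk RNA cannot separate more RNA per cell from a shift in the share of cells that make it.

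The filter on low counts was passed by 145 of the 152 members in both groups, by 2 through the control libraries only and by 5 through the HNRNPK siRNA libraries only, which then had to be higher there. Among the 145, 90 were higher and 9 lower. The gene with the largest fold change, ZNF709 (cluster 3), named after its values were seen, was one that entered through the HNRNPK siRNA libraries. Its levels were 0.297, 0.209, 0.133 and 0.438 CPM in the controls and 1.85, 2.60, 2.28 and 1.57 CPM with HNRNPK siRNA, a log2 fold change of 2.90 (SE 0.35).

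Numbered ZNF genes elsewhere and other genes of chromosome 19 are given for comparison. Of the numbered ZNF genes on other chromosomes, 193 were tested, 94 were higher and 36 lower, with a median log2 fold change of 0.20. Of the other genes of chromosome 19, 808 were tested, 180 were higher and 400 lower, with a median of -0.25. The difference between these lists and the members was not tested, because members are neighbours and relatives, not replicates.

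**Figure D1:**
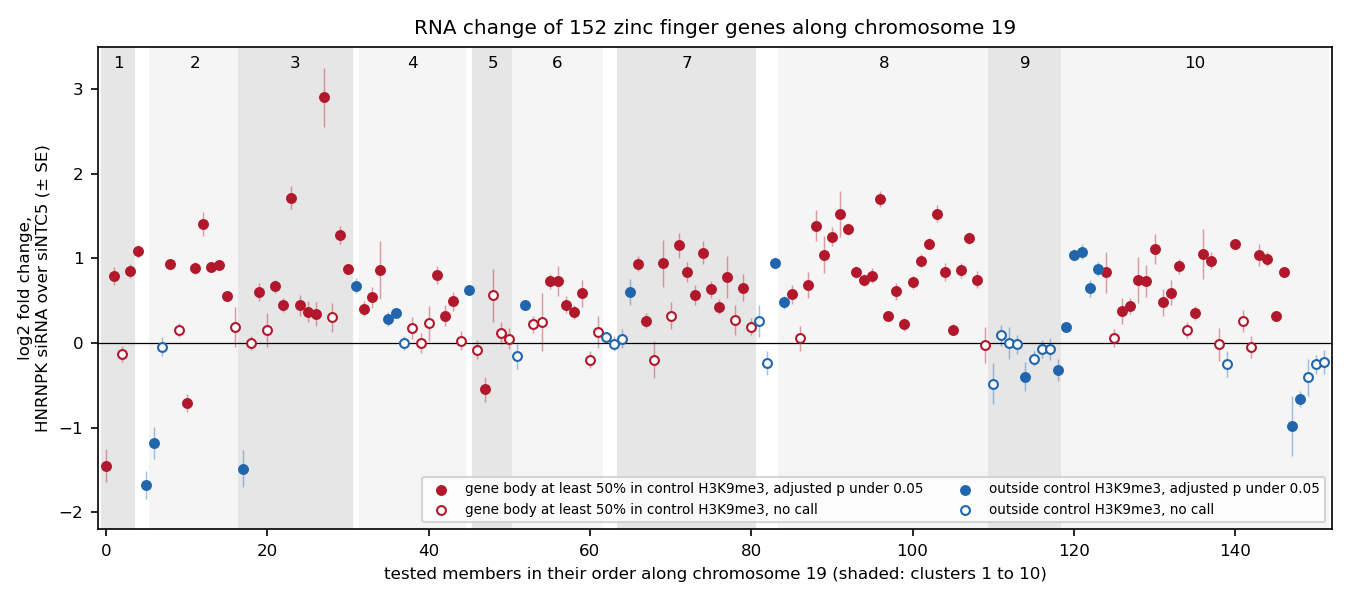
Log2 fold change (vertical axis, HNRNPK siRNA over siNTC5, bars ± SE) of the 152 tested members in their order along chromosome 19 (horizontal axis), red where at least 50% of the gene body lay in a control H3K9me3 domain and blue elsewhere, filled where adjusted p was under 0.05. Rises are densest in cluster 8, where 24 of 26 were higher, while clusters 5 and 9 hold no member called higher.

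The 12 largest rises among well-measured members came from clusters 2, 3, 7, 8 and 10, and 7 of them from cluster 8. All 12 lay in H3K9me3 domains in control cells. ZNF136 of cluster 3, a KRAB zinc finger gene (chr19:12163096-12189871), was at 3.38, 3.47, 4.06 and 2.90 CPM in the controls and at 10.9, 13.4, 10.7 and 10.1 CPM with HNRNPK siRNA. Every HNRNPK siRNA library thus stood above every control, and the log2 fold change was 1.72 (SE 0.14, adjusted p 2.13e-09 by edgeR).

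In cluster 8, ZNF701 (chr19:52570287-52600149) stood at 7.12, 7.98, 8.86 and 8.87 CPM in the controls and at 26.2, 28.0, 27.7 and 24.4 CPM with HNRNPK siRNA, a log2 fold change of 1.70 (SE 0.09, edgeR adjusted p 1.42e-11). Its body overlaps the pseudogene ZNF137P, and reads of the pair may not be separable. ZNF616 (chr19:52113091-52139938) went from 14.5, 15.0, 16.1 and 17.3 CPM to 39.6, 41.2, 39.4 and 39.5 CPM, a log2 fold change of 1.35 (SE 0.07). ZNF525 was at 18.9, 19.3, 19.3 and 19.1 CPM in the controls and 44.0, 48.4, 46.0 and 42.4 CPM with HNRNPK siRNA. Its log2 fold change was 1.24 (SE 0.07). None of these 3 genes has libraries of the groups that overlap. They share the promoter word AGGCCCCGCC printed above, and whether it goes with a rise was not tested. That word was in 19.8% of the promoters of higher members and 10.3% of those with no call. Its share was 27.6% of those not tested and 11.1% of the 9 of lower members.

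The remaining rises of cluster 8 included a gene with a known role. ZNF350 (ZBRK1) encodes a KRAB repressor that binds BRCA1. It was at 2.02, 1.46, 2.93 and 3.28 CPM in the controls and at 5.87, 5.57, 7.59 and 5.60 CPM with HNRNPK siRNA, a log2 fold change of 1.39 (SE 0.18). It overlaps its antisense gene ZNF350-AS1, and the strand counted is not given in the sources used here. ZNF888, ZNF614 and ZNF320, also in cluster 8, had log2 fold changes of 1.53, 1.26 and 1.18 with all HNRNPK siRNA libraries above all controls. ZNF888 also overlaps an antisense gene.

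Rises also came from other clusters. ZNF426 of cluster 2 went from between 2.97 and 4.93 CPM to between 10.3 and 11.2 CPM, a log2 fold change of 1.41 (SE 0.14). ZNF490 of cluster 3 rose by 1.28 (SE 0.10) and ZNF222 of cluster 7 by 1.15 (SE 0.15) on the log2 scale. ZNF587 of cluster 10 encodes a KRAB protein known to bind sequences of endogenous retroviruses. It was at 51.4, 55.3, 56.1 and 55.5 CPM in the controls and at 117.2, 131.9, 121.0 and 120.2 CPM with HNRNPK siRNA, a log2 fold change of 1.17 (SE 0.05, edgeR adjusted p 1.10e-12). Its near copy ZNF417 in the same cluster was between 6.08 and 7.89 CPM in the controls and between 5.60 and 7.28 CPM with HNRNPK siRNA, with no call. Reads shared by such copies may have been lost or split in counting, so both values are uncertain.

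ZNF274, the KRAB protein known to bring SETDB1 to zinc finger genes, is itself a member, in cluster 10 (chr19:58183061-58213562). Its RNA was at 11.98, 13.95, 13.2 and 15.8 CPM in the controls and at 27.4, 26.6, 27.2 and 28.3 CPM with HNRNPK siRNA. The libraries did not overlap, and the log2 fold change was 0.99 (SE 0.09, edgeR adjusted p 6.03e-09).

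The 3 members with the most counts were also higher than in siNTC5, but for ZNF146 and ZNF121 the call was lost when Scramble was added to the controls (adjusted p 0.086 and 0.073 by edgeR). ZNF146 (OZF), which is made almost wholly of fingers, was at 245.9, 239.2, 258.1 and 266.1 CPM in the controls. With HNRNPK siRNA it was at 319.5, 345.5, 375.8 and 340.8 CPM, a log2 fold change of 0.45 (SE 0.04); it overlaps ZNF565. ZNF121 went from 182.9, 191.8, 177.1 and 183.2 CPM to 327.7, 349.9, 361.0 and 332.3 CPM, a log2 fold change of 0.90 (SE 0.05), but stood at only 22.3 and 28.6 CPM in the Scramble libraries. ZNF317 went from 61.9, 69.5, 69.6 and 69.0 CPM to 133.7, 122.8, 131.1 and 128.7 CPM, a log2 fold change of 0.94 (SE 0.05). The HNRNPK siRNA and siNTC5 groups did not overlap in any of the 3. Both ZNF121 and ZNF317 belong to cluster 2.

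**Figure D2:**
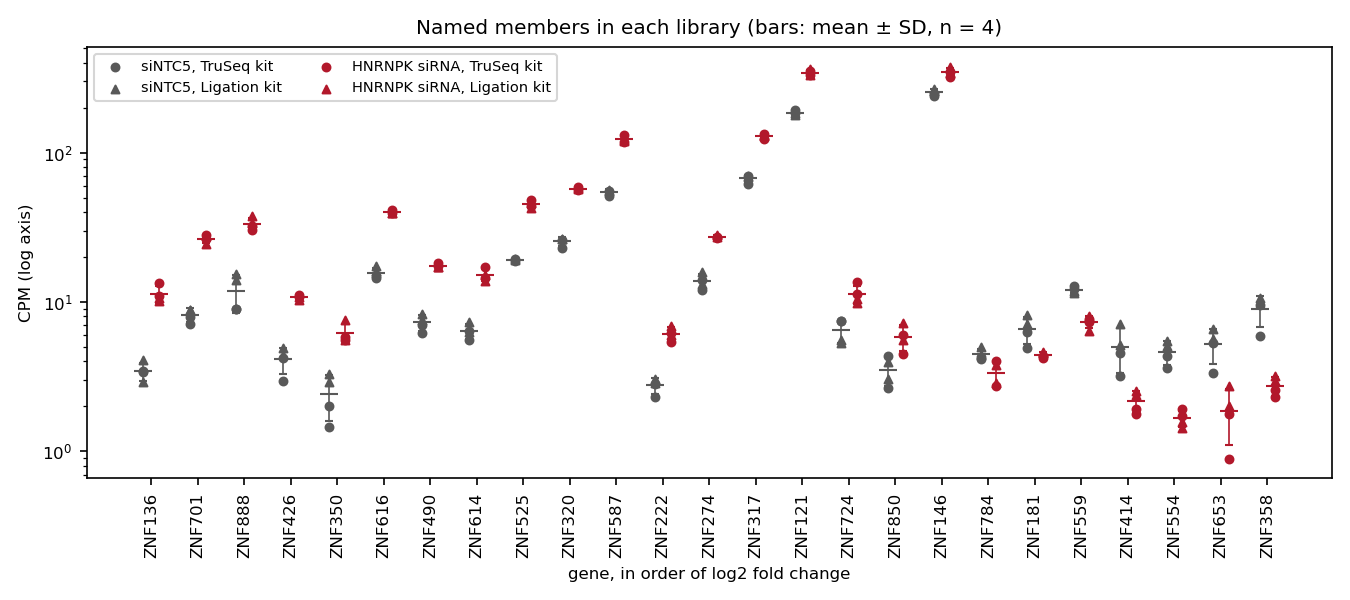
CPM on a log axis for the 25 named members in each of the 8 libraries (grey siNTC5, red HNRNPK siRNA, circles TruSeq and triangles Ligation kit), in order of log2 fold change, with mean ± SD over n = 4. In each gene shown the 4 HNRNPK siRNA libraries lie wholly above or wholly below the 4 controls.

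Only 10 members were lower, and 7 of these were named by the same rule. ZNF358, which lies outside the clusters (chr19:7513880-7521025), was at 9.49, 5.89, 10.7 and 9.74 CPM in the controls and at 2.57, 2.30, 2.95 and 3.21 CPM with HNRNPK siRNA, a log2 fold change of -1.68 (SE 0.17). ZNF653, whose protein is known to repress the nuclear receptor NR5A1, was at 5.28, 3.34, 6.60 and 5.69 CPM and then at 1.78, 0.89, 2.02 and 2.72 CPM, a log2 fold change of -1.49 (SE 0.22). In both, the control of replicate 2 was the lowest of its group, yet above every HNRNPK siRNA library. ZNF554 fell by 1.45, ZNF414 by 1.18, ZNF559 by 0.71, ZNF181 by 0.55 and ZNF784 by 0.40 on the log2 scale. ZNF559 overlaps a readthrough transcript, ZNF559-ZNF177, with which it may share reads. The call of ZNF784 (adjusted p 0.041 by edgeR) did not hold when replicate 2 or 4 of HNRNPK siRNA, or replicate 3 or 4 of siNTC5, was left out (adjusted p from 0.058 to 0.137 by edgeR). ZNF497, ZNF584 and ZNF444, the other lower calls, had log2 fold changes of -0.98, -0.66 and -0.32, and the groups overlapped in ZNF584 and ZNF444. Of the 10, 7 lay outside H3K9me3, H3K9me2, H3K27me3 and lamin B1 domains alike.

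Among the 90 members with too few counts, 49 had no count in any of the 8 libraries. At the depths given, their levels were not detectable rather than absent. Of the others, 34 had a higher mean CPM with HNRNPK siRNA and 7 a lower one. Their summed level was between 2.55 and 4.49 CPM in the controls and between 6.68 and 7.65 CPM with HNRNPK siRNA, so the groups did not overlap. A rise at low counts was not particular to the members. All genes tested held 99.90% to 99.91% of counts in the controls and 99.87% with HNRNPK siRNA. The genes left untested thus held a larger share there as a whole. The like count of higher and lower means over all untested genes was not made. In control cells 86 of the 90 lay in H3K9me3 and 85 in lamin B1 domains. ZNF93 and ZNF331, a repressor of LINE-1 elements and an imprinted gene, are examples named after their values were seen, with 0 to 1 count over the 8 libraries. ZNF91, which is known to repress SVA elements, was tested and was higher by 0.32 on the log2 scale (SE 0.13, edgeR adjusted p 0.030), with groups that overlapped.

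The share of members that rose varied from cluster to cluster, and differences between clusters were not tested. Cluster 8 (ZNF175 to ZNF331, chr19:51571283-53580269) had 26 of 39 members tested, 24 higher, none lower and a median log2 fold change of 0.82. Its median shift was 0.81, 0.89, 0.77 and 0.67 in the 4 HNRNPK siRNA libraries. Cluster 7 (ZNF575 to ZNF180) followed with 12 of 17 higher, none lower and a median of 0.61. Cluster 2 (ZNF414 to ZNF846) had 6 of 11 higher and 2 lower, with a median of 0.55. The order of the clusters depends on how they are drawn and on single libraries: with a gap of 250 kb the median of cluster 2 was 0.887, above that of cluster 8, and without replicate 2 of HNRNPK siRNA that of cluster 7 was 0.493.

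Cluster 10 (ZNF264 to ZNF446) near the end of the long arm had 33 tested members, 22 higher and 2 lower, with a median of 0.48. With a gap of 1 Mb it merged with cluster 9, and the median of both was 0.292. Cluster 3 (ZNF653 to ZNF791) had 10 of 14 higher and 1 lower, with a median of 0.45. Cluster 6 (ZNF565 to ZNF573) had 6 of 11 higher and none lower, with a median of 0.37. Its largest rise was ZNF850, at 4.33, 2.67, 3.06 and 3.94 CPM in the controls and 4.48, 6.02, 7.25 and 5.60 CPM with HNRNPK siRNA (log2 fold change 0.73, SE 0.18). Its call was lost with the TruSeq libraries alone (adjusted p 0.077 by edgeR).

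Cluster 4 (ZNF101 to ZNF254, chr19:19668153-24129968) is the longest at 4.462 Mb and reaches towards the centromere. Only 13 of its 38 members had enough counts; 8 were higher and none lower, with a median of 0.32. Its largest rise at sufficient level was ZNF724, at 7.47, 7.43, 5.33 and 5.58 CPM in the controls and 13.5, 11.2, 10.5 and 9.81 CPM with HNRNPK siRNA (log2 fold change 0.80, SE 0.11). Its call was lost with Scramble added to the controls (adjusted p 0.168 by edgeR). Cluster 1 had 4 tested members, 2 higher and 1 lower.

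Clusters 5 and 9 held no member called higher. In cluster 5 (ZNF302 to ZNF792) all 5 members were tested, ZNF181 was lower and the median was 0.05. Its largest log2 fold change was 0.57, and 1 member without a call had all HNRNPK siRNA libraries above all controls. All 5 lay in control H3K9me3 domains and in control H3K27me3 domains. In cluster 9 (ZNF628 to ZNF835) 9 of 16 members were tested, ZNF784 and ZNF444 were lower and the median was -0.08. The 9 tested members of cluster 9 all lay outside control H3K9me3 domains, and its 7 untested members all lay inside them.

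Within cluster 10, members outside H3K9me3 at the near and the far end differed in direction, a pattern chosen after the values were seen. Of 11 tested members outside H3K9me3, 5 were higher, 2 lower and 4 had no call, with a median of -0.23. The genes named next are not all of the 11 in this cluster. At its near end ZNF264, ZNF805, ZNF460, ZNF543 and ZNF304 were all higher, with log2 fold changes of 0.19, 1.05, 1.08, 0.65 and 0.88. At its far end ZNF497, ZNF584, ZNF132, ZNF324 and ZNF446 had log2 fold changes of -0.98, -0.66, -0.41, -0.25 and -0.23, of which the first pair passed the test. Among neighbouring tested members within clusters, 133 pairs in all, log2 fold changes had a Pearson r of 0.29 and a Spearman rho of 0.33. The points share genes, libraries and overlapping bodies, so this is a description across genes.

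A gene was placed in a domain where at least 50% of its body was covered. The domain lists have no replicates, so the following sets counts of members side by side without a test. Of the 242 members, 199 lay in control H3K9me3 domains, and 113 of these were tested. Of the 113, 81 were higher and 3 lower, with a median log2 fold change of 0.60. Outside H3K9me3, 39 of 43 members were tested, 13 were higher and 7 lower, with a median of -0.01. The percentages higher were 71.7 inside and 33.3 outside, against the 35.5% of all genes tested. In each HNRNPK siRNA library the median shift was between 0.48 and 0.66 inside and between 0.04 and 0.08 outside. The groups did not overlap in summed level in either set, and outside H3K9me3 the sums were 827.0 to 897.7 CPM in the controls and 1062 to 1151 CPM with HNRNPK siRNA.

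The same split was made elsewhere in the genome. All positioned genes in control H3K9me3 domains, members included, had 405 tested, 49.1% higher and 17% lower, with a median log2 fold change of 0.29. Numbered ZNF genes of other chromosomes had 55 tested in H3K9me3 with 63.6% higher and a median of 0.37, and 138 outside with 42.8% higher and a median of 0.14. The other genes of chromosome 19 had only 20 tested in H3K9me3, 7 higher and 2 lower.

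H3K9me2, the dimethylated form of the mark, covered 157 members, of which 155 also lay in H3K9me3. Of the 73 tested, 52 were higher and 1 lower, with a median of 0.57, and of the 79 tested outside it 42 were higher and 9 lower, with a median of 0.32. Over all positioned genes in H3K9me2 domains, members included, 61.2% of the 165 tested were higher, with a median of 0.50. With only the domains that scored at or above the median of the list, 34 members inside were higher, and the medians were 0.467 inside and 0.419 outside. Among H3K9me3 members, the 72 tested with H3K9me2 had a median of 0.58 with 70.8% higher, and the 41 tested without it a median of 0.61 with 73.2% higher. H3K27me3, the mark set by Polycomb complexes, covered 14 members. Of the 10 tested, 2 were higher and 1 lower, with a median of 0.09. Over all positioned genes in control H3K27me3 domains, members included, 41.2% of the 1370 tested were higher and 24.5% lower, with a median of 0.16. Of the 10 members, 5 form cluster 5, which lies wholly in H3K27me3 domains. Those 5 also lay in control H3K9me3 domains, and none of them was called higher.

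Lamin B1 domains covered 162 members in control cells, of which 161 also lay in H3K9me3. Of the 77 tested, 57 were higher and 1 lower, with a median of 0.63. Of the 75 tested outside lamin B1, 37 were higher and 9 lower, with a median of 0.22. Over all positioned genes in control lamin B1 domains, members included, 48.5% of the 412 tested were higher, with a median of 0.31. Lamin B1 and H3K9me3 overlapped closely at the members. The 36 tested members in H3K9me3 but outside lamin B1 had 24 higher, 2 lower and a median of 0.56, while the 39 tested members outside both had 13 higher and 7 lower. No tested member lay in lamin B1 without H3K9me3.

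After HNRNPK siRNA, 67 of the 162 members in lamin B1 domains were no longer in one, 95 still were, and none had entered one. Among all positioned genes, members included, 1481 of the 3581 in such domains left them, 2100 stayed and 426 entered one. The loss is thus not particular to the members. RNA was higher in both sets of members. Of the 50 tested that left the domains, 38 were higher and 1 lower, with a median of 0.61. Of the 27 tested that stayed, 19 were higher and none lower, with a median of 0.69. The median of those that stayed was lower in some alternatives, 0.48 with only the higher-scoring part of the domains and 0.52 without replicate 1 of HNRNPK siRNA. The median of those that left was not recomputed in these settings, and the difference between the sets was not tested. Over all positioned genes, members included, 48.0% of the 294 tested that left lamin B1 domains and 50% of the 118 that stayed were higher. ZNF701, ZNF616, ZNF525, ZNF136 and ZNF222 are among the members that left, and ZNF426, ZNF350, ZNF614, ZNF724, ZNF850 and ZNF274 among those that stayed.

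**Figure D3:**
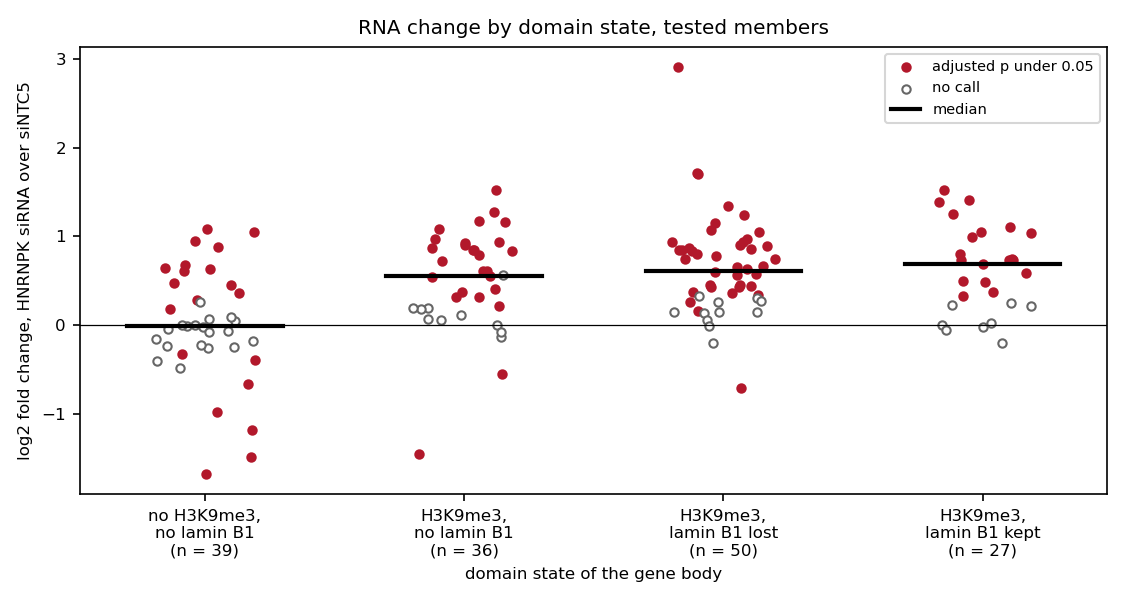
Log2 fold change (vertical axis, HNRNPK siRNA over siNTC5) of tested members by domain state of the gene body (horizontal axis), with filled points for adjusted p under 0.05 and a bar at the median. The 39 members outside H3K9me3 and lamin B1 centre on -0.01, and the sets in H3K9me3 have medians of 0.56 without lamin B1, 0.61 where it was lost and 0.69 where it was kept.

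No member in a control H3K9me3 domain lay outside one after HNRNPK siRNA, and 7 members entered one. Of those 7, ZNF430, ZNF146, ZNF473 and ZNF304 were higher, and ZNF558, ZNF431 and ZNF565 had no call. Among all positioned genes, members included, 1086 entered H3K9me3 domains and 20 left them, so the gain is not particular to the members. Of the 414 tested that entered, 35.0% were higher and 33.8% lower. Over the length of the 10 clusters, 14.371 Mb in all, H3K9me3 domains covered 79.8% after control siRNA and 82.7% after HNRNPK siRNA. In the rest of chromosome 19 they covered 11.2% and 12.4%. Among single clusters the cover went from 77.5% to 100% in cluster 5, from 92.6% to 98.6% in cluster 6 and from 52.2% to 58.1% in cluster 2. With only domains that scored at or above the median of their list, cluster 5 went from 27.5% to 100%. H3K27me3 covered 12.4% and 12.2% of the clusters.

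Lamin B1 cover of the clusters went from 70.1% to 47.5%, and in the rest of chromosome 19 from 12.7% to 10.7%. The loss was uneven. Cluster 7 went from 68.1% to 0%, cluster 3 from 68.7% to 13.9% and cluster 8 from 70.7% to 37.1%. Cluster 10 went from 56.9% to 35.4%, cluster 9 from 51.6% to 26.1% and cluster 2 from 25.5% to 7.1%. Cluster 4 kept 87.1% of its length in lamin B1 domains, from 89.5%, and cluster 6 kept 73.2%, from 95.4%. Clusters 1 and 5 had none after either siRNA. The value of cluster 7 rests on low-scoring domains: with only domains at or above the median score of their list it had 0% after either siRNA. Cluster 3 then went from 68.7% to 0%, cluster 8 from 70.7% to 27.1%, cluster 9 from 29.4% to 26.1% and cluster 2 from 25.5% to 0%. Cover falls where a domain is called less long or not at all, and the number of ChIP libraries behind each list and their depth were not used here.

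**Figure D4:**
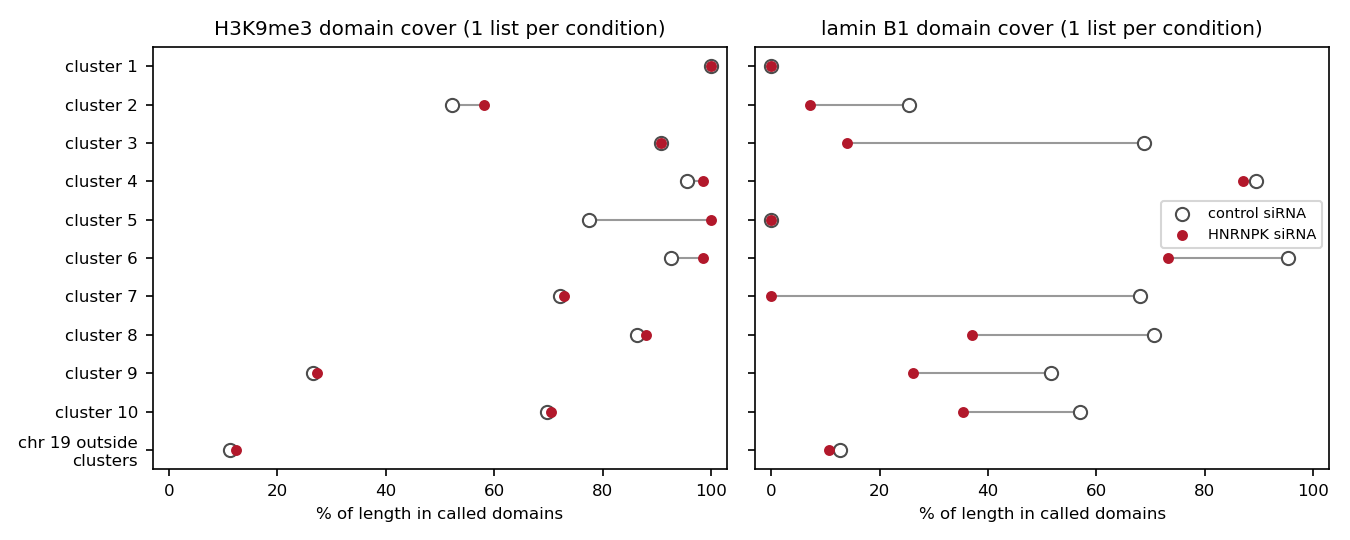
Percent of the length of each cluster, and of chromosome 19 outside the clusters, covered by called domains of H3K9me3 (left) and lamin B1 (right), open circles for control and red for HNRNPK siRNA, 1 list per condition. H3K9me3 points lie furthest apart in cluster 5, from 77.5% to 100%, and lamin B1 goes from 68.1% to 0% in cluster 7, where all control domains scored below the median of their list, and from 68.7% to 13.9% in cluster 3.

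The proteins that KRAB zinc finger proteins work with, and the enzymes that write or remove H3K9 methylation, were looked at as a list of 30 names. Of these, 28 were tested, 9 were higher, 10 lower and 9 had no call, with a median log2 fold change of -0.02. These shares are near the 35.5% and 36.1% of all genes tested. TRIM28, the KRAB corepressor, was at 826.2, 812.4, 780.8 and 776.0 CPM in the controls and 817.5, 784.9, 866.1 and 902.1 CPM with HNRNPK siRNA, with no call. SETDB1 had a log2 fold change of -0.03 (SE 0.05) and no call. Of the other H3K9 methyltransferases on the list, SETDB2 and SUV39H1 had no call and EHMT2 was not tested. SUV39H2 was lower by 0.37 (SE 0.08) and EHMT1 by 0.41 (SE 0.06) on the log2 scale. The SETDB1 partner ATF7IP rose by 0.47, and ADNP, which works with HP1, by 0.54 on the log2 scale. HDAC1, a histone deacetylase, fell by 0.65 and the chromatin remodeller ATRX by 0.62. The H3K9 demethylases did not all move alike. KDM4A was higher by 0.88 (SE 0.05) on the log2 scale, while KDM4B was lower by 2.02 (SE 0.13) and KDM4C by 0.25 (SE 0.06). KDM4A and ATF7IP were also higher in Scramble than in siNTC5, by 0.95 and 0.55 on the log2 scale. There ADNP, HDAC1 and ATRX differed by 0.12, 0.04 and 0.14, and KDM4B was higher by 0.94. EHMT1 and KDM4C were also higher in Scramble, by 0.303 and 0.265, and SUV39H2 was lower by 0.441. The change of these genes against Scramble alone was not tested.

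The kits were also compared. By kit, the median log2 fold change of tested members was 0.52 for TruSeq and 0.45 for Ligation, and 133 of the 152 had the same sign in both. All 93 higher members that the Scramble tables also list were above 0 in both kits. They were called from these same libraries, so the call itself largely sets the sign in each kit. In edgeR's test of the interaction of treatment and kit, no member had an adjusted p under 0.05, and 14 of the 152 had an unadjusted p under 0.05. Of all 13933 genes tested, 1639 had an unadjusted p under 0.05. By adjusted p, 0.129% of all genes tested were called, 0.0718% higher and 0.0574% lower. The Wald test of DESeq2 called no member either. Without replicate 2 of siNTC5 edgeR called 3 members, and without replicate 1 it called 1.

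The Scramble libraries show how far members differ between controls. Against siNTC5, 43 of 156 members tested were higher and 39 lower in Scramble by edgeR, against 69.3% of the 14642 genes tested called, 37.5% higher and 31.8% lower. With upper-quartile normalisation the split was 34 and 55. The median over members was -0.02. By H3K9me3 state, 23 of 115 inside were higher and 32 lower, with a median of -0.07, and 20 of 41 outside were higher and 7 lower, with a median of 0.17. Of the 52 that left lamin B1 domains after HNRNPK siRNA, 7 were higher and 17 lower in Scramble, with a median of -0.20. ZNF121 was at 22.3 and 28.6 CPM in Scramble and ZNF724 at 0.421 and 0.390 CPM, log2 differences of -2.86 and -4.15. ZNF358 was at 18.9 and 17.4 CPM in Scramble, a log2 difference of 1.26. Cluster 9 had 8 of 9 tested members higher in Scramble, with a median of 0.99. The siRNA, the purification kit, the depth and the count table cannot be told apart as sources of these differences.

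Set against all 6 nontargeting libraries at once, 76 of 151 shared members had all 4 HNRNPK siRNA libraries on top and 8 had them all below, against 22% and 22.9% of the genes shared and tested. The 76 are all among the 93 shared members called higher. With Scramble added to the controls, 80 members were higher and 8 lower. In that fit 3337 of all 13460 genes tested were higher and 3628 lower. Of the named rises, the calls of ZNF146, ZNF121 and ZNF724 did not hold there.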

How the data were processed

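The authors deposited unnormalised gene counts, made with STAR 2.7.1a and featureCounts (Subread 2.0.6) on hg38 per the submitters' processing notes, which name hg19 and hg38 for the Scramble tables. The strand counted is not given in the sources used here. The deposited domain lists, whose 4th column was read as a score of unstated scale, came from reads handled with bcl2fastq 2.20, fastp 0.23.2, Bowtie2 2.5.1 and deepTools 3.1.3 on hg38 per the same notes. The domain caller and pooling of replicates are not given in the sources used here.

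Counts were filtered with filterByExpr, scaled by TMM and tested in edgeR 4.0.16 (R 4.3.3) over all genes, with library kit and treatment as terms and Benjamini-Hochberg adjustment at 0.05. SE is the size of the log2 fold change over the root of the F statistic. CPM values are TMM-normalised; those that include Scramble come from a joint normalisation over the 25527 shared names, and all others from the 8 libraries. Per-library shifts use log2(CPM + 0.5). Positions came from RefSeq for 27622 names, 635 of them by synonym, and 128 members overlap another gene.

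Libraries with the same replicate number share a kit, and their deviations correlated at 0.13, 0.49, 0.40 and 0.32 across genes, and between -0.15 and -0.30 once kit was removed. Removing kit and treatment by a fit to these same libraries itself makes such correlations negative. They therefore cannot show whether the libraries were paired. A replicate block was an alternative, beside DESeq2 1.42.0, other scalings and filters, each kit, and each library left out. The fit was tested on simulated data with known changes.

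Members, lists and rules were chosen with earlier results of these data known. The genes named had to be called, to reach 1 in average log2 CPM and to have groups without overlap. They are the 12 largest rises, the 8 largest falls (7 met the criteria), and the largest of each cluster with 5 tested members. The 3 with the highest counts and ZNF274 were added. Protein sequences were not analysed here. Counting error limits low genes most.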

Additional observations from a re-analysis of the deposited data

Results flagged for a closer look

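In 76 groups of 4 libraries (the named genes, the clusters and the summed members), 7 had 1 library whose gap to the nearest other, divided by the range of the group, exceeded Dixon's critical value at the 95% level. Chance gives about 1 in 20 groups. The low library was siNTC5 replicate 1 in 4 of them: ZNF320 at 22.95 CPM, ZNF587 at 51.35 CPM, ZNF317 at 61.9 CPM and the sum of cluster 7 at 118.0 CPM. With HNRNPK siRNA, replicate 2 was high for ZNF616 at 41.22 CPM and for ZNF490 at 18.2 CPM, and replicate 3 for ZNF350 at 7.587 CPM. In each of the 6 genes all HNRNPK siRNA libraries stayed above all controls, which the choice of named genes required for all but ZNF317.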

How the results depend on the processing

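The replicate block gave 94 members higher and 10 lower with a median of 0.45, as without it, and changed no call of a named gene. Over all alternatives, 80 to 98 members were higher and 7 to 14 lower. Of all genes, the alternative fits called 3337 to 5325 higher and 3628 to 5540 lower, with 11442 to 21564 tested. The median log2 fold change of members was 0.522 with Scramble added, 0.537 with TruSeq libraries only and 0.528 without the filter on low counts. Among 475 alternatives for named genes none changed direction and 14, in 6 genes, ended a call: 9 for ZNF784, 1 with TruSeq libraries only for each of ZNF181 and ZNF850, and those with Scramble added given above. Of 517 alternatives for the other results, 475 gave a like value.

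Without the filter the medians were 0.754 in cluster 1, 0.682 in cluster 2, 0.687 in and -0.042 outside H3K9me3, 0.698 in and 0.275 outside H3K9me2, 0.71 in and 0.171 outside control lamin B1 domains, and 0.828 in lamin B1 domains after HNRNPK siRNA, and the kit interaction called 1 member. With upper-quartile normalisation the medians were 0.028 outside H3K9me3 and 0.355 outside H3K9me2. With domains scoring at or above the median of their list, H3K9me2 held 34 higher members with a median of 0.467 inside and 0.419 outside, the median outside control lamin B1 was 0.322, that in lamin B1 after HNRNPK siRNA was 0.481, and control lamin B1 covered 63.6% of the clusters. Placing genes by transcription start gave 0.274 outside control lamin B1. With a gap of 250 kb the medians were 0.887 in cluster 2 and -0.2 in cluster 9, and with 1 Mb clusters 9 and 10 merged at 0.292. The cause was not tested.

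Leaving out each library in turn, which was chosen after seeing the data for the kit interaction, Scramble, the clusters and the domains, gave 0 to 3 members in the kit interaction. The medians then ranged from 0.493 to 0.616 in cluster 7, from -0.056 to 0.001 outside H3K9me3, from 0.283 to 0.335 outside H3K9me2, from 0.539 to 0.647 in and 0.186 to 0.252 outside control lamin B1, and from 0.515 to 0.724 in and 0.369 to 0.454 outside lamin B1 after HNRNPK siRNA. The domain lists hold 1 list per condition, so domain states have no replicate check, and the 90 members with few counts have none of their changes tested.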
